A study of Bos grunniens with 18 samples.

Results

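The genes described here are the ubiquitin ligases and ubiquitin-conjugating enzymes expressed in yak whole blood. They were chosen by annotation and abundance. A row of the deposited gene table was taken if its KEGG annotation listed the ubiquitin-mediated proteolysis pathway and not the cell cycle pathway, and if it had at least 10 counts in at least 6 libraries, and SOCS1, SOCS3 and the row described as VHL were left out. Of 195 rows with the pathway, 26 also carried the cell cycle pathway and 16 of the rest stayed under the abundance limit, which left 150 members among 20607 genes. A symbol was given for 109 members, and the other 41 are listed by identifier only.

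Blood came from adult female yaks (Bos grunniens) aged 4 to 8 years at 3 reproductive stages, with 6 libraries for each of anestrus (Y-A), estrus (labelled Y-E) and pregnancy (labelled Y-P). The labels give no genotype or strain. Estrus was synchronised with a progesterone pessary, prostaglandin and gonadotropin-releasing hormone before timed insemination. Blood was tracked through the stages, and the paper states that 6 cows were chosen for sequencing. However, no label ties a replicate number to a cow. EDTA blood was lysed whole in TRIzol LS, so that RNA of red cells, neutrophils, lymphocytes, monocytes and platelets was pooled in each library, and the day of pregnancy at sampling was not used here.

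Ubiquitin is attached to proteins by a relay. An activating enzyme (E1) charges ubiquitin or a related modifier with ATP, a conjugating enzyme (E2) carries it, and a ligase (E3) brings the E2 to its substrate. HECT ligases take the modifier onto themselves first, RING and U-box ligases let the E2 pass it on directly, and cullin ligases are assembled from a scaffold, a RING subunit and exchangeable substrate receptors, and are switched on by the modifier NEDD8. In blood the relay is known for limiting antigen and growth factor receptor signalling, for control of inflammation and cell death, and for clearing proteins from maturing red cells.

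By symbol, shared orthology entry, enzyme number or description, the members comprised 7 E1 rows, 36 E2 rows, 24 HECT rows, 7 U-box rows, 31 single-subunit RING rows, 5 cullin scaffold or RING subunits and 14 cullin adaptors or receptors. No role was assigned to 5 rows, which had no symbol or enzyme number and an orthology entry that no named member shared. Their roles were not looked up further, so the counts by role may leave out scaffolds or adaptors. The remaining 21 members carry names of other functions, among them the sideroflexins SFXN1, SFXN2, SFXN3 and SFXN5 and the GTPase regulator RCC1L, which shares the orthology entry of HERC4. They were kept because the annotation put them in the pathway. Among all members, 2 rows were annotated as pseudogenes.

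Libraries held 30247267 to 48401076 counts, and the members took 1.08 to 1.36% of them. The level of a gene is given below as CPM, its count scaled by TMM to a common library size, and levels of different genes are compared only as FPKM, which also divides by transcript length. The defining markers of whole blood were present, and their levels differed by stage. The 10 erythroid markers summed to 469 to 11808 CPM in Y-A, 107 to 194 CPM in Y-E without replicate 6 and 47.0 to 140 CPM in Y-P, and Y-E replicate 6 alone held 4981 CPM. Neutrophil markers, relative to T cell markers, were lowest in pregnancy: the log2 ratio of their sums ran from 0.889 to 1.88 for the Y-P libraries, from 1.78 to 2.78 for Y-A and from 2.24 to 3.27 for Y-E. Y-P replicates 2, 3 and 5 also stood apart. They were the deepest of that stage (40359672 to 48401076 counts), and genes with long transcripts (at least 3.76 kb) were low in them relative to genes with short ones (at most 1.43 kb), by a median of -0.43 to -0.23 on the log2 scale, against 0.11 to 0.20 in Y-P replicates 1, 4 and 6.

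**Figure D1:**
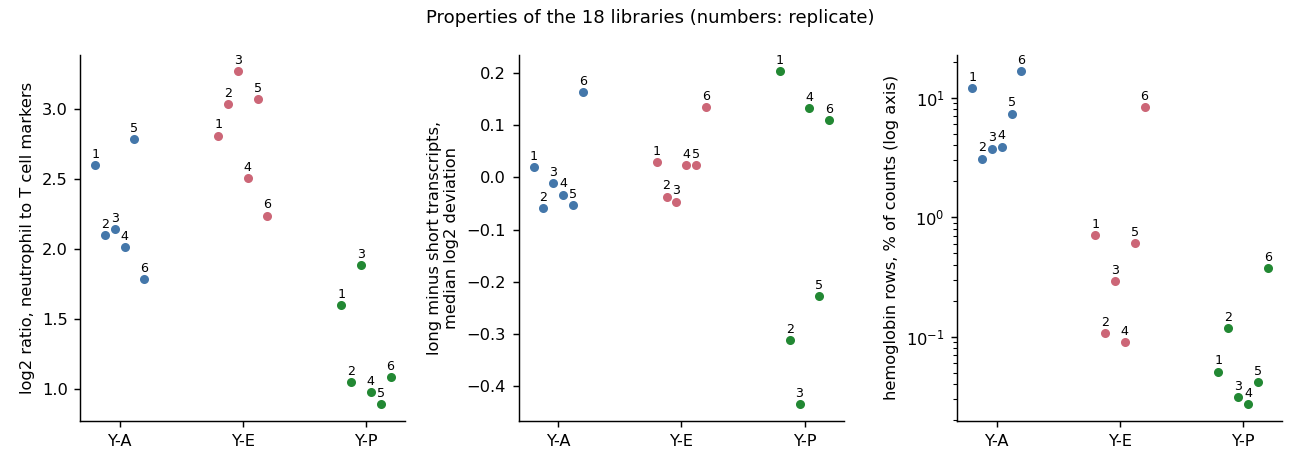
Each point is 1 library, numbered by replicate, with stage on the x axis. The left panel gives the log2 ratio of summed neutrophil to T cell marker CPM (0.889 to 1.88 in Y-P), the middle panel the median log2 deviation of long minus short transcripts (-0.43 to -0.23 in Y-P replicates 2, 3 and 5), and the right panel the hemoglobin rows as a percentage of counts on a log axis (8.36% in Y-E replicate 6).

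The relay was expressed throughout. Mean FPKM over the 18 libraries ran from 0.110 to 357 among the members, with a median of 15.6, and 139 of the 150 had 10 counts or more in every library. Among E1 rows UBA1, the main ubiquitin-activating enzyme, had a mean of 107 FPKM and UBA3, the catalytic subunit of the NEDD8-activating enzyme, 44.6 FPKM. The highest E2 was ENSBGRG00000003301 at 357 FPKM, a row without a symbol that shares its orthology entry with UBE2D1, and UBE2G1 followed at 95.8 FPKM. Rows of the UBE2D type are close copies, and how reads were divided among them is uncertain. The rows ENSBGRG00000007740 and ENSBGRG00000009242, of this type, are placed on chromosome Y, although all animals were female. They are among the 139 with 10 counts in every library, but their counts cannot be taken as expression of those rows. The origin of their reads was not tested.

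Among ligases the highest level was that of BIRC3, a RING ligase that acts in tumour necrosis factor and NF-kappaB signalling, at 249 FPKM; the next of the RING rows was COP1, which marks transcription factors for degradation, at 54.0 FPKM. TRIP12 led the HECT ligases with a symbol at 64.8 FPKM, and the unnamed HECT row ENSBGRG00000021028 lay at 69.5 FPKM. UBE4A at 48.2 FPKM and PRPF19, which also serves in the spliceosome, at 45.1 FPKM were the highest U-box ligases. Among rows assigned a cullin role, the highest scaffolds were CUL3 (38.0 FPKM) and CUL7 (33.7 FPKM). The highest adaptors or receptors were DDB2, a damaged-DNA receptor of CUL4 ligases (40.9 FPKM), and the adaptor subunit ELOC (32.8 FPKM). The rows without an assigned role reached 85.5 FPKM. Variation within a stage was modest for these genes: the median coefficient of variation of CPM over the members was 0.156 for the Y-A libraries, 0.166 for those of Y-E and 0.223 for those of Y-P, against 0.233, 0.223 and 0.258 over all 14508 genes tested. The members were chosen partly by abundance, and no genes of like abundance were compared, so the lower variation cannot be read as their trait.

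The first comparison asked what estrus changed relative to anestrus. No member passed an adjusted p of 0.05 in Y-E vs Y-A (edgeR, two-sided, Benjamini-Hochberg over 14508 genes), where 0.0207% of all genes did, and DESeq2 and limma also called 0. At an unadjusted p under 0.05 there were 6 members, against 6.2% of all genes. The members with the smallest p were CBLB, a brake on T cell activation, with a log2 fold change of -0.28 ± 0.110 (SE), FSD1L with -0.48 ± 0.184, UBE2R2 with 0.35 ± 0.139, the heat shock relative HSPA12B with 0.40 ± 0.175 and BTRC, the receptor for phosphorylated beta-catenin and IkappaB, with 0.28 ± 0.131. ENSBGRG00000022026, an E1 row by its enzyme number, had -0.18 ± 0.0918. Their adjusted p lay between 0.602 and 0.852, and no member had its 6 Y-E libraries apart from its 6 Y-A libraries (background 0.131% higher and 0.172% lower).

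Pregnancy was compared with both other stages, and these comparisons share the Y-P libraries. In Y-P vs Y-A 10 of 150 members passed, 4 higher and 6 lower, which is 6.67% against a background of 5.83% (2.22% higher, 3.61% lower). In Y-P vs Y-E 20 members passed, 6 higher and 14 lower, which is 13.3% against a background of 14.4% (5.77% higher, 8.68% lower). At an unadjusted p under 0.05 the comparisons gave 41 members (background 22.7%) and 45 members (background 29.3%). The members were thus called about as often as other genes, and the median log2 fold change over the 150 was 0.00 and -0.03 in the respective comparisons, against 0.03 and 0.04 over all genes. Past the further limit of a 2-fold change (log2 of 1) there was only CBL, in Y-P vs Y-E, where 2.67% of all genes passed both limits; in Y-P vs Y-A there was none, against 1.43%. Whether fewer cells of a type or less RNA per cell lay behind a lower level cannot be told apart in whole blood.

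The direction of the calls depended on the scaling. With library size alone in place of TMM, 14 of 17 calls in Y-P vs Y-A and 17 of 21 in Y-P vs Y-E were higher, which is 82.4% and 81.0% of the members' calls against 40% and 30% with TMM. Over all genes the share of calls that were higher moved likewise, from 38.1% to 80.6% and from 39.9% to 70.3%, with 9.19% and 17.6% of genes called, and the median of all genes moved from 0.03 to 0.19 and from 0.04 to 0.18. Of the 30 calls made with TMM 13 were lost with library size alone, all of them lower members, among them HERC1 in Y-P vs Y-A (adjusted p = 0.0575), TRIP12 and RCC2 in both comparisons and XIAP in Y-P vs Y-E. All changes below are relative to the TMM scale. Libraries with no overlap between stages were found for 2 higher and 6 lower members in Y-P vs Y-A (background 1.23% and 2.32%) and for 3 higher and 7 lower in Y-P vs Y-E (background 2.19% and 3.84%).

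**Figure D2:**
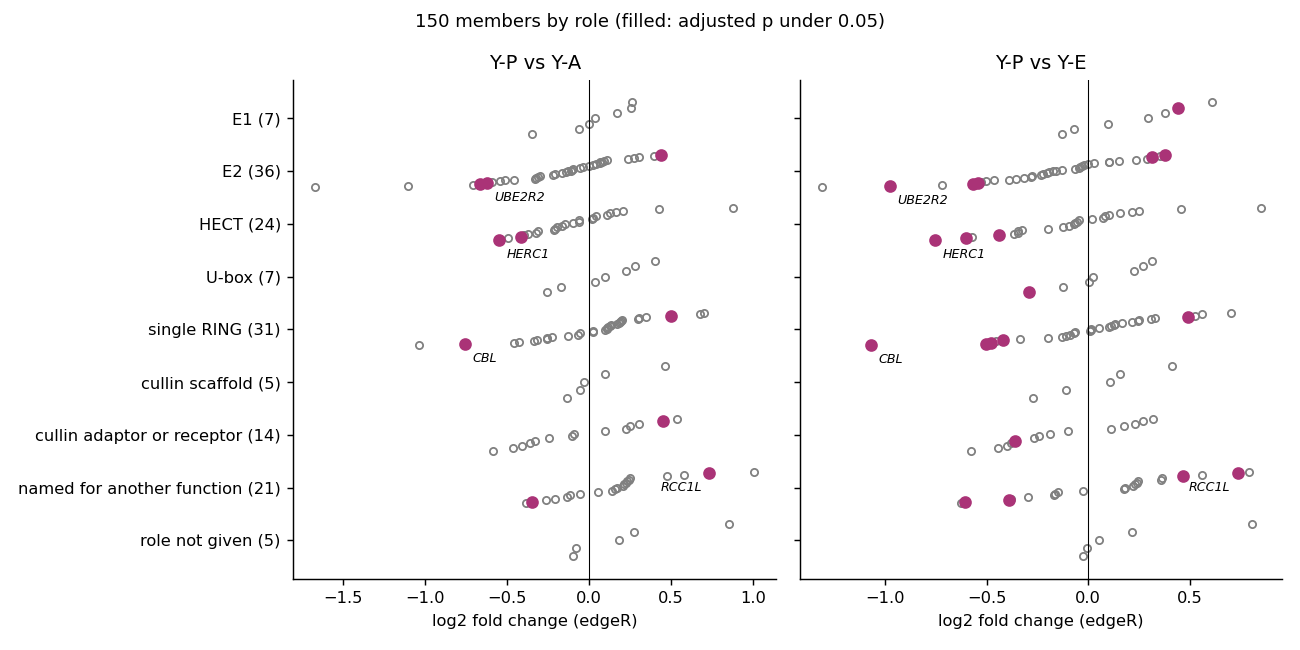
Each point is 1 of 150 members, placed by its log2 fold change (x axis) within its role (y axis, number of members in parentheses); filled points passed an adjusted p of 0.05 in edgeR. Of the filled points, 4 lie above 0 and 6 below in Y-P vs Y-A, and 6 above and 14 below in Y-P vs Y-E, with CBL lowest at -1.07.

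Of the 7 E1 rows 1 passed, in Y-P vs Y-E, where 14.4% of all genes did. The roles hold few rows, and no role was tested against the shares of all genes. ENSBGRG00000022026 measured 70.2, 78.7 and 88.1 CPM (lowest, median, highest) for Y-A, 63.1, 67.2 and 83.9 CPM for Y-E and 82.6, 93.1 and 107 CPM for Y-P. In Y-P 5 libraries were above all others, and the lowest lay within the ranges of Y-A and Y-E. It rose by a log2 fold change of 0.44 ± 0.0919 over Y-E (adjusted p = 0.0041). UBA7, which activates the interferon-induced modifier ISG15, spanned 47.9 to 135 CPM in Y-A, 54.4 to 103 CPM in Y-E and 57.0 to 133 CPM in Y-P, so the stages lay on top of each other (adjusted p = 0.742 and 0.480 in the comparisons of Y-P with Y-A and Y-E).

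Of the 36 E2 rows, 1 was higher and 2 were lower in Y-P vs Y-A (background 2.22% and 3.61%). In Y-P vs Y-E 2 were higher and 3 lower (background 5.77% and 8.68%). UBE2R2 (chromosome 7, 10794826 to 10895321, plus strand) encodes an E2 of the CDC34 type that extends ubiquitin chains for cullin ligases. Its levels were 116, 134 and 175 CPM for Y-A, 134, 177 and 216 CPM for Y-E and 65.9, 90.5 and 106 CPM for Y-P. Every Y-P library lay below every library of the other stages, whereas Y-A and Y-E overlapped. The log2 fold change was -0.62 ± 0.140 against Y-A (adjusted p = 0.0166) and -0.98 ± 0.141 against Y-E (adjusted p = 0.000431), which is 0.508 of the Y-E level. CDC34, its close relative, spanned 20.8 to 48.9 CPM in Y-P, with medians of 30.1, 27.3 and 25.6 CPM over the successive stages, and did not pass.

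UBE2F (chromosome 3, 128580076 to 128636909, plus strand) conjugates NEDD8, not ubiquitin, and works with RNF7 on CUL5. It measured 25.9, 32.8 and 36.4 CPM for Y-A, 27.5, 29.5 and 33.6 CPM for Y-E and 13.8, 19.5 and 25.1 CPM for Y-P. All Y-P libraries were below all others. It fell by 0.67 on the log2 scale from Y-A (SE 0.134, adjusted p = 0.00911) and by 0.57 from Y-E (SE 0.134, adjusted p = 0.00881). Of its known partners, chosen after their values were seen, UBA3 had medians of 71.8, 68.6 and 73.0 CPM in Y-A, Y-E and Y-P, CUL5 had 52.3, 55.3 and 51.6 CPM, RNF7 had 6.69, 7.08 and 9.03 CPM and UBE2M, the other NEDD8 E2, had 35.0, 39.4 and 22.2 CPM, and none of them passed.

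Rising E2 rows were fewer. UBE2Z (chromosome 19, 29122702 to 29136664, plus strand), which is charged by UBA6 in place of UBA1, had 89.3, 96.9 and 111 CPM for Y-A, 85.8, 92.5 and 104 CPM for Y-E and 105, 116 and 128 CPM for Y-P. Its Y-P libraries were above all Y-E libraries but not all of Y-A, and it rose by 0.31 ± 0.0795 over Y-E (adjusted p = 0.0133). ENSBGRG00000012335, of the UBE2D orthology entry, had 98.1, 112 and 133 CPM for Y-A, 104, 121 and 134 CPM for Y-E and 128, 156 and 175 CPM for Y-P. Only the lowest Y-P library fell within the ranges of the other stages, and the row rose by 0.44 ± 0.0966 over Y-A (adjusted p = 0.0155) and by 0.38 ± 0.0966 over Y-E (adjusted p = 0.0141). UBE2D1 and ENSBGRG00000003301, with the same orthology entry, did not pass in either comparison.

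UBE2W, which attaches ubiquitin to protein N-termini, was named after its values were seen. It measured 31.9, 38.1 and 49.7 CPM in Y-E and 16.3, 26.2 and 34.1 CPM in Y-P, with overlap, and fell by 0.54 on the log2 scale (SE 0.156, adjusted p = 0.0252). Without Y-E replicate 6 its adjusted p was 0.0563, and it was also lost without Y-E replicate 3 or 5 or without Y-P replicate 3 or 4. The gene overlaps STAU2 on the same strand, so its reads may be shared.

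**Figure D3:**
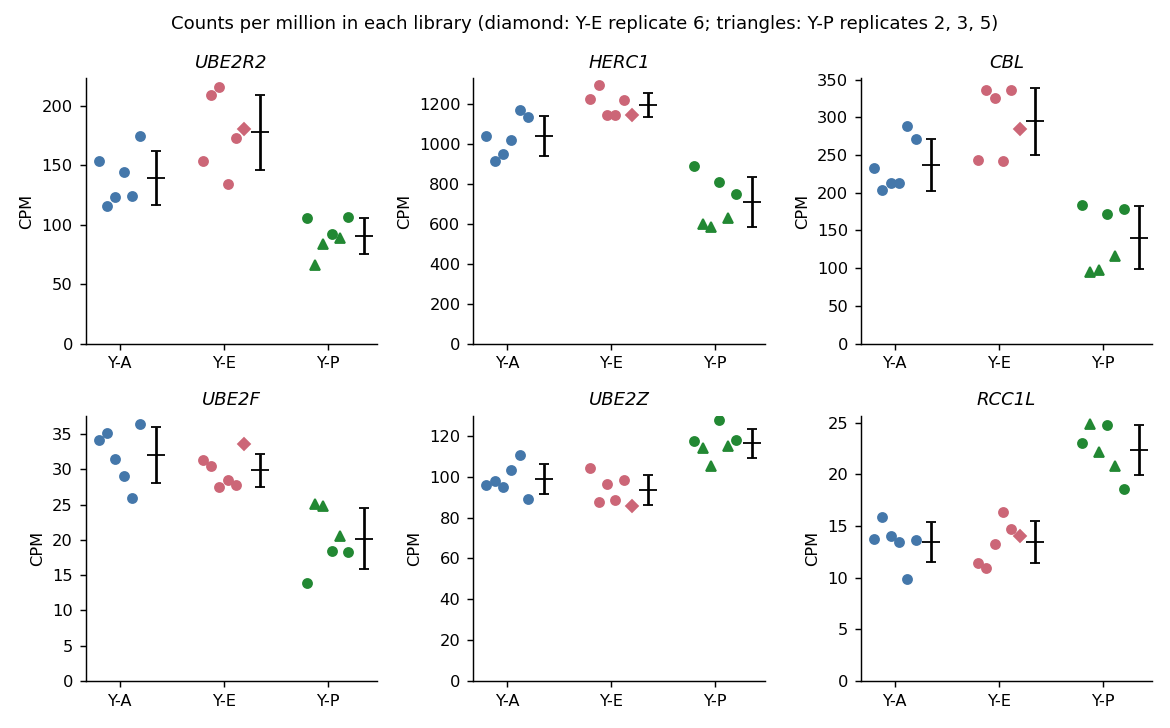
Each point is 1 library's CPM for 6 members, by stage, with the mean and SD of 6 libraries beside it; the diamond is Y-E replicate 6 and triangles are Y-P replicates 2, 3 and 5. For UBE2R2 every Y-P library is at or below 106 CPM and every other library at or above 116 CPM, while RCC1L is at or above 18.6 CPM in Y-P and at or below 16.3 CPM elsewhere.

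UBE2H and UBE2O, E2 enzymes known for their induction in maturing red cells, were listed for that link and did not pass (adjusted p = 0.219 and 0.424 in Y-P vs Y-A and 0.182 and 0.731 in Y-P vs Y-E). UBE2O measured 32.4 to 48.3 CPM in 5 Y-A libraries and 173 CPM in Y-A replicate 6. It measured 31.9 to 51.3 CPM in 5 Y-E libraries and 89.6 CPM in Y-E replicate 6, and 31.9, 44.4 and 50.4 CPM in Y-P. The high libraries are those with the most erythroid marker RNA. UBE2H behaved alike only in part: Y-A replicate 6 held 142 CPM against 41.7 to 78.5 CPM in the other Y-A libraries, whereas in Y-E the highest of 57.5, 68.6 and 101.1 CPM came from a library with few erythroid markers.

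**Figure D4:**
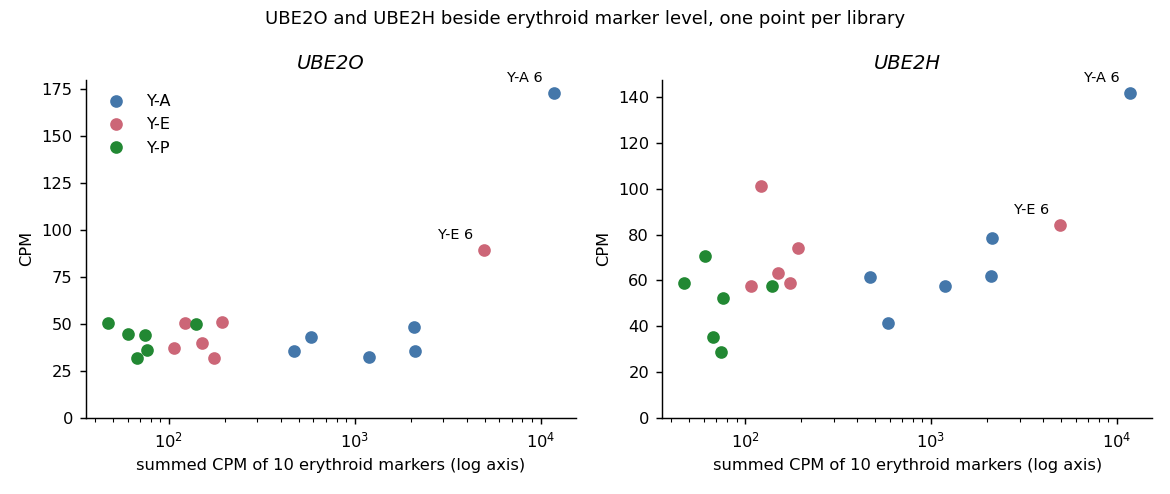
Each point is 1 of 18 libraries, coloured by stage, with the summed CPM of 10 erythroid markers on the x axis (log scale) and the CPM of UBE2O or UBE2H on the y axis. Y-A replicate 6 (11808 CPM of markers) holds 173 CPM of UBE2O and Y-E replicate 6 (4981 CPM) 89.6 CPM, while the other libraries lie at 31.9 to 51.3 CPM.

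Among the 24 HECT ligases none was higher, while 2 were lower in Y-P vs Y-A and 3 in Y-P vs Y-E. Over all genes 2.22% were higher and 3.61% lower in the former comparison, and 5.77% and 8.68% in the latter. With 24 rows, the lack of higher calls cannot be read as a trait of this role. HERC1 (chromosome 11, 32701682 to 32881578, plus strand), a very large ligase with RCC1-like domains, measured 915, 1028 and 1168 CPM for Y-A, 1144, 1180 and 1290 CPM for Y-E and 584, 687 and 886 CPM for Y-P. All Y-P libraries were below all others, and the Y-E and Y-A ranges overlapped. It fell by 0.55 on the log2 scale from Y-A (SE 0.111, adjusted p = 0.00928) and by 0.75 from Y-E (SE 0.111, adjusted p = 0.000484). The related HERC3, HERC4 and HERC5 did not pass.

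TRIP12, which limits the DNA damage ligase RNF168, had 525, 567 and 576 CPM for Y-A, 536, 560 and 616 CPM for Y-E and 320, 401 and 575 CPM for Y-P. The Y-P libraries spread widely: replicates 2, 3 and 5 held 320 to 366 CPM and replicates 1, 4 and 6 held 436 to 575 CPM. It fell by 0.44 from Y-E (SE 0.119, adjusted p = 0.019) and by 0.42 from Y-A (SE 0.119, adjusted p = 0.0458), and the call against Y-A held in 3 of 18 fits that each left out 1 library, namely those without Y-E replicate 1, Y-E replicate 6 or Y-P replicate 1. SMURF1, a ligase of bone morphogenetic protein signalling named after its values were seen, fell by 0.60 from Y-E (SE 0.179, adjusted p = 0.0305), from a median of 36.0 to 22.7 CPM with overlap; the call was lost without Y-E replicate 2 or 5 or without Y-P replicate 2, 3 or 5. SMURF2 did not pass.

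Of the 7 U-box ligases 1 passed, in Y-P vs Y-E (background 14.4%). UBE4B, a chain-extending ligase, had 118, 122 and 131 CPM in Y-E and 86.9, 103 and 112 CPM in Y-P. These ranges did not overlap, although the fall was the smallest among lower members that passed, at 0.29 on the log2 scale (SE 0.0803, adjusted p = 0.0206; 0.0506 without Y-E replicate 2). Its relative UBE4A spanned 237 to 427 CPM in Y-P around a Y-E range of 315 to 385 CPM and did not pass.

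The 31 single-subunit RING rows gave 1 higher and 1 lower call in Y-P vs Y-A (background 2.22% and 3.61%). They gave 1 higher and 4 lower in Y-P vs Y-E (background 5.77% and 8.68%). CBL (chromosome 13, 57584996 to 57679970, minus strand) encodes the ligase that ends signalling from activated receptor tyrosine kinases. It measured 204, 223 and 289 CPM for Y-A, 242, 305 and 336 CPM for Y-E and 95.2, 144 and 184 CPM for Y-P. No Y-P library reached the range of the others. The log2 fold change was -0.75 ± 0.171 against Y-A (adjusted p = 0.0176) and -1.07 ± 0.172 against Y-E (adjusted p = 0.0008), which is 0.476 of the Y-E level. Within Y-P, replicates 2, 3 and 5 held 95.2 to 116 CPM and replicates 1, 4 and 6 held 172 to 184 CPM. The related CBLB measured 53.7 to 76.1 CPM in Y-E and 56.7 to 75.9 CPM in Y-P, and CBLC also did not pass.

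XIAP, the inhibitor of caspases, measured 65.6, 77.2 and 90.3 CPM for Y-A, 71.3, 80.4 and 94.4 CPM for Y-E and 41.6, 55.5 and 73.8 CPM for Y-P. The highest Y-P library reached into the Y-E range, and XIAP fell by 0.50 from Y-E (SE 0.134, adjusted p = 0.017). BIRC3, of the same family of apoptosis inhibitors, spanned 348 to 675 CPM in Y-P and 394 to 619 CPM in Y-E and did not pass.

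Several RING rows moved less, or were called in 1 comparison only. RNF157, a ligase studied in neurons, rose from 24.1, 26.99 and 31.3 CPM in Y-E to 32.4, 37.3 and 49.1 CPM in Y-P with no overlap (log2 0.49 ± 0.113, adjusted p = 0.00721). RCHY1, a ligase of p53, rose from 18.6, 22.7 and 26.2 CPM in Y-A to 21.9, 33.1 and 38.2 CPM in Y-P (log2 0.50 ± 0.132, adjusted p = 0.0329), and 5 of the Y-P libraries were above the Y-A range; its call held in 9 of 18 fits that left out 1 library, and was lost without Y-A replicate 1, 2, 3, 5 or 6 or without Y-P replicate 2, 3, 5 or 6. PIAS1 and PIAS2, ligases of the related modifier SUMO that were named after their values were seen, fell by 0.48 (SE 0.132, adjusted p = 0.0206) and 0.42 (SE 0.121, adjusted p = 0.0267) from Y-E. PIAS1 was lost without Y-E replicate 5 (adjusted p = 0.0501) and PIAS2 without Y-E replicate 2 or 5 or Y-P replicate 3. PIAS3 missed the threshold at an adjusted p of 0.0584, with Y-P libraries at 38.3 to 44.6 CPM and Y-E libraries at 43.7 to 60.5 CPM.

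None of the 5 rows assigned as cullin scaffolds or RING subunits passed in any comparison. Of the 14 assigned as adaptors or receptors, 1 passed in each comparison with Y-P. The shares of all genes were 5.83% in Y-P vs Y-A and 14.4% in Y-P vs Y-E, and 5 rows are too few to read the absence of calls. DDB2 fell from 58.6, 66.3 and 77.0 CPM in Y-E to 45.7, 53.0 and 56.9 CPM in Y-P without overlap (log2 -0.36 ± 0.105, adjusted p = 0.027; 0.060 on the log2 scale with the neutrophil to T cell ratio as a covariate); the call was lost without Y-E replicate 2, 3 or 5 or without Y-P replicate 1 or 4. CUL4A, its scaffold, did not pass. FBXW8, the F-box receptor that binds CUL7, rose from 10.6, 12.3 and 14.0 CPM in Y-A to 14.8, 17.3 and 19.2 CPM in Y-P, again without overlap (log2 0.45 ± 0.115, adjusted p = 0.0279), and was lost without Y-A replicate 1, 4, 5 or 6 or without Y-P replicate 2, 3 or 6. CUL7 itself spanned 131 to 283 CPM in Y-P around an anestrus range of 155 to 230 CPM.

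Members with names of other functions included the member with the largest rise among those that passed. RCC1L (chromosome 26, 10983447 to 11012055, plus strand), known from mitochondrial ribosome assembly, measured 9.90, 13.7 and 15.9 CPM for Y-A, 10.9, 13.6 and 16.3 CPM for Y-E and 18.6, 22.6 and 24.9 CPM for Y-P. Every Y-P library was above every other library. It rose by 0.73 ± 0.129 over Y-A (adjusted p = 0.00479) and by 0.74 ± 0.129 over Y-E (adjusted p = 0.00147), or 1.66 and 1.67 times. RCC2, a mitotic regulator with the same kind of repeat, went the other way, from medians of 196 and 194 CPM in Y-A and Y-E to 153 CPM in Y-P, and fell by 0.34 from Y-A (SE 0.0963, adjusted p = 0.0424) and by 0.39 from Y-E (SE 0.0963, adjusted p = 0.0116); its log2 fold change against Y-E was 0.015 with the neutrophil to T cell ratio as a covariate. The call against Y-A held in 8 of 18 fits, and was lost without Y-A replicate 1, 2, 3, 4 or 5, Y-E replicate 5 or Y-P replicate 1, 2, 4 or 5.

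In Y-P vs Y-E TTC27, a tetratricopeptide repeat protein, rose by 0.47 (SE 0.148, adjusted p = 0.04) and HSPA12B fell by 0.61 (SE 0.175, adjusted p = 0.0262). Both calls depended on single libraries: TTC27 was lost without Y-A replicate 2, Y-E replicate 1, 2, 3 or 5 or Y-P replicate 3, 4 or 5, and HSPA12B without Y-E replicate 2, 3 or 5 or Y-P replicate 3. With the 21 members named for other functions and the 5 rows without a role set aside, 124 members in an enzyme or subunit role were left. These gave 8 calls in Y-P vs Y-A (6.45%, background 5.83%) and 16 in Y-P vs Y-E (12.9%, background 14.4%). Both shares were close to those of all genes.

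Only CBL, ENSBGRG00000012335, HERC1, RCC1L, RCC2, TRIP12, UBE2F and UBE2R2 passed in both comparisons with Y-P, 8 of the 22 members called in either. Of these 8, UBE2R2, HERC1, CBL, UBE2F, RCC1L and ENSBGRG00000012335 passed in both comparisons in all 18 fits that left out 1 library. The share of all genes that passed in both comparisons was not counted. Since the comparisons share the Y-P libraries, the overlap cannot be read as a trait of the members. Without Y-E replicate 6 the calls numbered 12 in Y-P vs Y-A (background 6.06%), including all 10 found with it, and 24 in Y-P vs Y-E (background 13.7%), including 19 of 20.

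The Y-P libraries were not uniform for the members. Between replicates 1, 4 and 6 and replicates 2, 3 and 5, 23 members lay apart with the former higher and 20 with the former lower, against 12.3% and 14.8% of all genes. Among 45 members with long transcripts, 5 were called lower and none higher in Y-P vs Y-A, and 7 lower and none higher in Y-P vs Y-E; among 35 with short transcripts 0 and 1 were called. Of all 3627 genes with long transcripts 7.499% and 17.5% were called, mostly lower, against 11.1% and 15.6% of the long members, and of all short ones 3.92% and 8.99%. With only Y-P replicates 1, 4 and 6 kept, a choice made after seeing the data, 5 members passed in Y-P vs Y-A (background 2.02%) and 12 in Y-P vs Y-E (background 7.34%), of which 3 and 8 were called with all libraries. The 8 were UBE2R2, HERC1, CBL, UBE2F, RCC1L, UBE2Z, ENSBGRG00000022026 and ENSBGRG00000012335. CBL then had -0.73 against Y-E, HERC1 -0.55, UBE2R2 -0.81 and UBE2F -0.83, while TRIP12 (-0.20), XIAP (-0.24), SMURF1 (-0.29) and PIAS2 (-0.19) were more than 1.5 times smaller than with all 6. In Y-P vs Y-A the 3 were RCC1L, UBE2F and ENSBGRG00000012335. UBE2R2 (-0.46, adjusted p = 0.125), CBL (-0.41, adjusted p = 0.123) and HERC1 (-0.35, adjusted p = 0.0784) kept their direction there but did not pass.

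**Figure D5:**
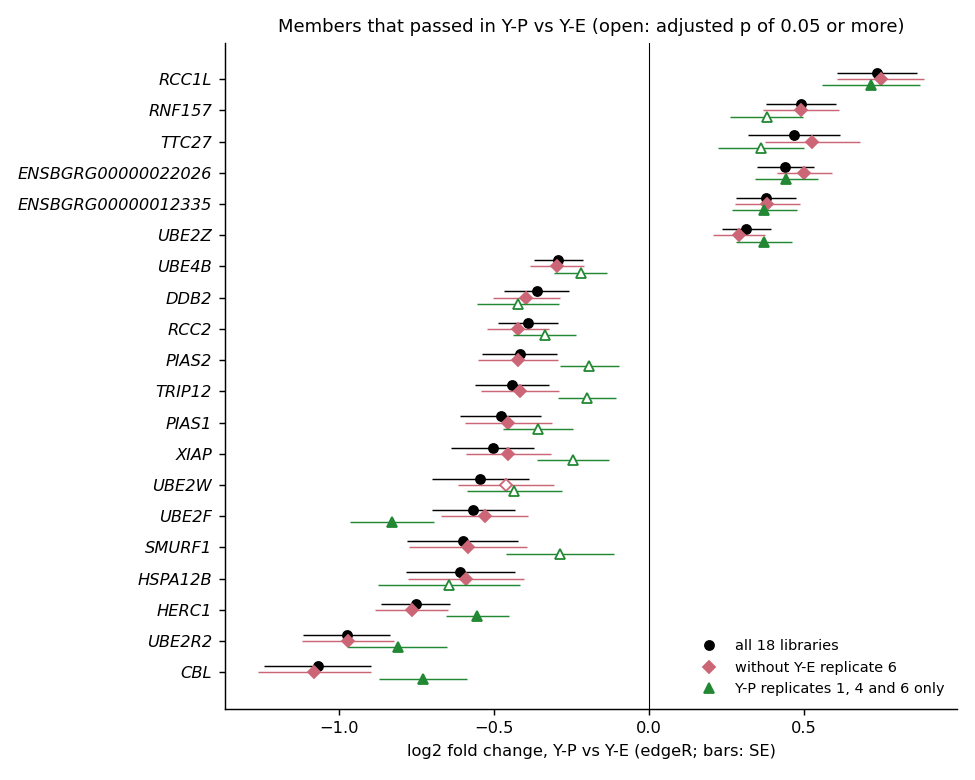
The 20 members that passed in Y-P vs Y-E are listed on the y axis, with the log2 fold change and its SE on the x axis from all 18 libraries (circles), without Y-E replicate 6 (diamonds) and with only Y-P replicates 1, 4 and 6 (triangles); open symbols did not pass an adjusted p of 0.05. UBE2W is the only open diamond, and 8 triangles are filled, among them CBL at -0.73 and RCC1L at 0.72.

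The cell makeup of the blood moved with the stage. The neutrophil to T cell ratio did not overlap between Y-P and Y-E. The 6 platelet markers summed to 155 to 210 CPM in the Y-P libraries, below all of Y-A (286 to 374 CPM) and Y-E (241 to 397 CPM), and their part in the members' results was not tested. With the neutrophil to T cell ratio as a covariate 0 members passed in any comparison by edgeR, where 0.71% of all genes passed in Y-P vs Y-A and 0.00689% in Y-P vs Y-E. The fitted log2 fold changes in Y-P vs Y-E were then -0.85 ± 0.297 for UBE2R2, -0.65 ± 0.234 for HERC1, -0.83 ± 0.365 for CBL, -0.78 ± 0.272 for UBE2F and 0.46 ± 0.260 for RCC1L. RCC2 (0.015) and DDB2 (0.060) then had small positive values, which did not pass and cannot be read as a rise. With erythroid marker level as the covariate none of the 10 members called in Y-P vs Y-A passed (background 0.0965%), the 1 call there being WWP1, named after its values were seen. In Y-P vs Y-E 17 members passed (background 12.5%), 11 of them among the 20 called without it, and these included UBE2R2, HERC1, CBL, UBE2F and RCC1L but not TRIP12, XIAP or UBE2Z. Stage and the neutrophil to T cell ratio cannot be told apart between Y-P and Y-E. Between Y-P and Y-A the ratios overlapped only in part (0.889 to 1.88 in Y-P, 1.78 to 2.78 in Y-A), so stage and ratio are hard to separate there as well. Stage and erythroid marker level cannot be told apart between Y-P and Y-A. There the summed erythroid markers did not overlap (469 to 11808 CPM in Y-A, 47.0 to 140 CPM in Y-P), so the loss of calls under that covariate decides nothing.

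Related genes outside the members were read from lists. None of 53 deubiquitinases passed in Y-E vs Y-A, 1 was lower in Y-P vs Y-A (OTUD5, -0.50; 1.89% of the list against 5.83% of all genes), and in Y-P vs Y-E 3 were higher (PSMD14, 0.51; USP13, 0.54; USP20, 0.62) and 2 lower (USP3, -0.43; OTUD7B, -0.42), which is 9.43% against 14.4%. Of 25 tested genes with both the ubiquitin and the cell cycle pathway, 1 was higher in Y-P vs Y-A, namely ANAPC5 (0.65). That is 4% of the list, against 2.22% of all genes called higher. In Y-P vs Y-E 5 were higher, which is 20% of the list against 5.77% of all genes. They were ANAPC5 (0.69), CDC23 (0.61), CDC16 (0.53), ENSBGRG00000006958 (0.44) and ANAPC4 (0.38). The list is short and was not tested against the shares of all genes. Other subunits of the anaphase-promoting complex on the list did not pass, among them ANAPC2 (0.48), ANAPC1 (0.16), ANAPC7 (0.14) and CDC27 (-0.17). The 5 ubiquitin and ubiquitin-like genes gave no call.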

How the data were processed

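Whole-blood mRNA of 18 libraries (3 stages, 6 each) was sequenced in pairs from strand-marked cDNA. Per the submitters' processing notes the authors used cutadapt 1.9, HISAT2 2.2.1 and StringTie 2.1.6, and the deposited table gives counts and FPKM per gene, with annotation. How the deposited counts were made, and whether strand was used, is not given in the sources used here, so overlapping genes cannot be separated.

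Members and lists were chosen with earlier results of these data known. Counts were tested with edgeR 4.0.16 (filterByExpr, TMM, quasi-likelihood F test, two-sided, R 4.3.3) in 1 fit of all 18 libraries, with Benjamini-Hochberg adjustment over 14508 genes and a threshold of 0.05. The script was tested on simulated counts. Named genes are the 8 higher and 8 lower with the smallest adjusted p among those that passed in each comparison (3 and 3 by unadjusted p in Y-E vs Y-A), the 2 highest by FPKM in each role, those past both limits, and UBE2H, UBE2O and UBA7; others are said to be chosen after their values were seen. The 20 relatives and partners of called members were chosen in that way; none passed, and 3 of them (PIAS3, UBE2M and RNF7) passed under an alternative.

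Alternatives were DESeq2 1.42.0, limma 3.58.1 on log2(FPKM + 1), other scalings and filters, covariates, and leaving out libraries. No label states that same-numbered libraries, or the libraries of a stage, come from given cows, so the main fit has no block. It treats the libraries as independent, although the paper describes cows followed through the stages. Where stages share cows its p-values ignore that pairing, and they measure only the spread between these samples. Depth was 30247267 to 48401076 counts, and members with under 10 counts in some libraries (11) are imprecise. No sequence is printed, since none was at hand.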

Additional observations from a re-analysis of the deposited data

Results flagged for a closer look

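Samples far from the others in their stage were sought by Dixon's test in 123 groups of 6 (40 members and the hemoglobin share). It marked 5 values, where chance alone marks about 1 in 20 groups, or 6.15 of the 123. The count of flags did not exceed that number, but the groups share the same libraries and are not independent. The count therefore cannot tell whether a given value arose by chance. Every marked value came from replicate 6 of its stage. Y-A replicate 6 and Y-E replicate 6 also held the most erythroid marker RNA, at 11808 and 4981 CPM. UBE2O stood at 173 CPM in Y-A replicate 6, against 32.4 to 48.3 CPM in the other Y-A libraries, and at 89.6 CPM in Y-E replicate 6, against 31.9 to 51.3 CPM. UBE2H stood at 142 CPM in Y-A replicate 6, against 41.7 to 78.5 CPM. The hemoglobin rows took 8.36% of counts in Y-E replicate 6, against 0.0899 to 0.713%, and 0.376% in Y-P replicate 6, against 0.0272 to 0.117%.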

How the results depend on the processing

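In Y-E vs Y-A 0 members passed under every alternative. In Y-P vs Y-A, where 10 passed, the count was 17 with library size only, with DESeq2 and with the length index as covariate (added after seeing the data), 23 with limma on FPKM, 6 with only the 2 stages compared, 5 with Y-P replicates 1, 4 and 6 only, 1 with the erythroid covariate and 0 with the neutrophil to T cell covariate. Leaving out 1 library gave 6 to 15, with 6 each without Y-A replicate 5 or Y-P replicate 2. In Y-P vs Y-E, where 20 passed, it was 31 with DESeq2, 13 with only the 2 stages, 12 with Y-P replicates 1, 4 and 6 only and 0 with the neutrophil to T cell covariate, and leaving out 1 library gave 13 to 25, with 13 without Y-E replicate 5. The share of all genes rose or fell with these counts: in Y-P vs Y-A it was 5.83% in the reported fit, 9.19% with library size only, 10.3% with DESeq2, 8.23% with the length index, 14.6% with limma and 3.45% with 2 stages, and in Y-P vs Y-E 14.4%, 19.0% with DESeq2 and 12.5% with 2 stages. The erythroid covariate gave 17 in Y-P vs Y-E, 11 of them shared with the 20. The median log2 fold change of the members moved to 0.16 (library size only) and 0.14 (limma) in Y-P vs Y-A, and to 0.12, 0.12 and 0.024 (library size only, limma, neutrophil to T cell covariate) in Y-P vs Y-E. With the last covariate RCC2 (0.015) and DDB2 (0.060) changed sign in Y-P vs Y-E, to small values that did not pass. With the replicate block 15 and 29 members passed (8.84% and 17.98% of all genes), and no call among the 36 gene results was lost. No label states whether numbers pair the libraries. Deviations of same-numbered libraries correlated at -0.0472 to 0.472, and 14 of 18 matched their own number best among the 6 libraries of the other stage. Between Y-E and Y-A 6 of 6 did so. The cause of these shifts was not tested, except that fewer samples enter where libraries are left out. Members near 10 counts are limited by depth.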
